A study of Rattus norvegicus with 60 samples.

Results

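A list of 44 lysosomal genes was examined at the mRNA level in whole lungs of rats that had inhaled crystalline silica. Particles of this mineral dust are taken up by lung macrophages. The genes comprised 23 hydrolases, 3 activator and lipid-binding proteins, 8 membrane proteins, 8 subunits of the vacuolar proton pump and 2 transcription factors. They were found in the deposited table by symbol or by gene identifier. For 41 of the 44 at least 1 row was found, 43 rows in all, and no row matched Ctsa, Ctsz and Atp6v1a. All 41 passed the filter on detection, which asked for a detection p under 0.05 on at least 4 of 60 arrays, and they were tested among 13918 genes. Each row was detected on all 60 arrays except those of Galns and Tfeb, detected on 58. The members are listed by function, but the list was chosen with earlier results of these data known. The shares of members called, set against those of all genes below, are therefore descriptive. Of the measured values only detection and brightness chose the members' rows.

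The rats were male, of the strain labelled CDF Fisher 344, at an age of about 3 months, and 1 Illumina BeadChip array was run on the lung RNA of each. In the silica groups 40 rats had breathed the dust 6 hours daily over 5 days, at 15 mg/m3. In the control groups 20 rats had breathed air. Separate animals, 8 silica and 4 air rats at each time, were killed at 1, 2, 4, 8 or 16 weeks from the end of exposure. The labels name no genetic change and no other agent in any group, and the RNA came from whole lung, in which fewer cells of a type and less RNA per cell cannot be told apart.

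Lysosomes are acidic organelles in which proteins, lipids, glycogen and glycosaminoglycans are taken apart by hydrolases that work best at low pH. A proton pump, the vacuolar ATPase, keeps them acidic, and their membrane carries glycoproteins, transporters and channels. In the lung they are prominent in alveolar macrophages, which engulf inhaled particles, and in alveolar type II cells, whose lamellar bodies are lysosome-related organelles that store surfactant.

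Array medians of the signal were 60.2 to 97.8, and the lung markers Sftpc, Sftpb, Sftpa1, Ager, Scgb1a1 and Aqp5 were detected on all 60 arrays. In the array of silica replicate 3 at 4 weeks the signals stood 2 lines away from their gene names from gene line 17 on, and they were moved back. No run is named in the labels. Runs were inferred from the deposited order of the arrays, a new one being started where a group came up again. This gave 8 runs, each with 1 silica array of every time. Runs 1, 3, 5 and 6 also held 1 air array of every time, and runs 2, 4, 7 and 8 held silica arrays alone. The labels do not say what a run is. Deviations from the group means correlated with a median r of 0.18 between arrays of a run and -0.03 between arrays of different runs. Results are therefore also given within runs and with run as a block, the block being chosen after seeing the data. Levels below are normalised log2 intensities, on which values of different genes are not comparable, and differences are silica minus air ± standard error of the limma fit, for 8 silica and 4 air rats at a time. A gene was called at a Benjamini-Hochberg adjusted p under 0.05 over all 13918 genes, and adjusted p-values below are those of limma.

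Members were called higher in silica lungs at every time, and more of them at 16 weeks than at any other time. At 1 week 9 of 41 members were higher, against 2.68% of all genes tested, and none was lower by limma, against 1.14% of all genes, with 1 lower at an unadjusted p under 0.05. At 2 weeks 12 were higher and 1 lower, where 4.77% of all genes were higher and 4.58% lower. At 4 weeks 6 were higher, against 2.86% of all genes, and none was lower by limma, against 3.78%, with 2 lower at an unadjusted p under 0.05. At 8 weeks 12 were higher, against 4.76% of all genes, and none was lower by limma, against 4.15%, with 1 lower at an unadjusted p under 0.05. At 16 weeks 21 were higher and 1 lower, where 10.5% of all genes were higher and 12.2% lower. For the mean of the 5 differences 27 of 41 members were higher and 2 lower, where 14.6% of all genes were higher and 20.6% lower. The median difference of the members was 0.16 at 1 week, 0.18 at 2, 0.11 at 4, 0.12 at 8 and 0.22 at 16 weeks, while the median over all genes stayed between -0.015 and -0.005.

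Ctsh, Dpp7, Lgmn, Npc2 and Scarb2 were called higher at all 5 times. Ctss, Gusb, Hexa and Atp6v1b2 were called higher at 4 of them, with 4 weeks missing each time, though with run as a block Atp6v1b2 was called at 4 weeks as well (adjusted p = 0.0244). A further 8 members were called for the mean of the 5 times and at no single time. With run as a block 4 of these 8 were called at single times, namely Ctsc, Galns, Lipa and Cln3. Of the 41 members 11 passed no comparison. The shares of all genes for these tallies are not given here. Whether members were called at several times more often than other genes is therefore not shown.

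**Figure D1:**
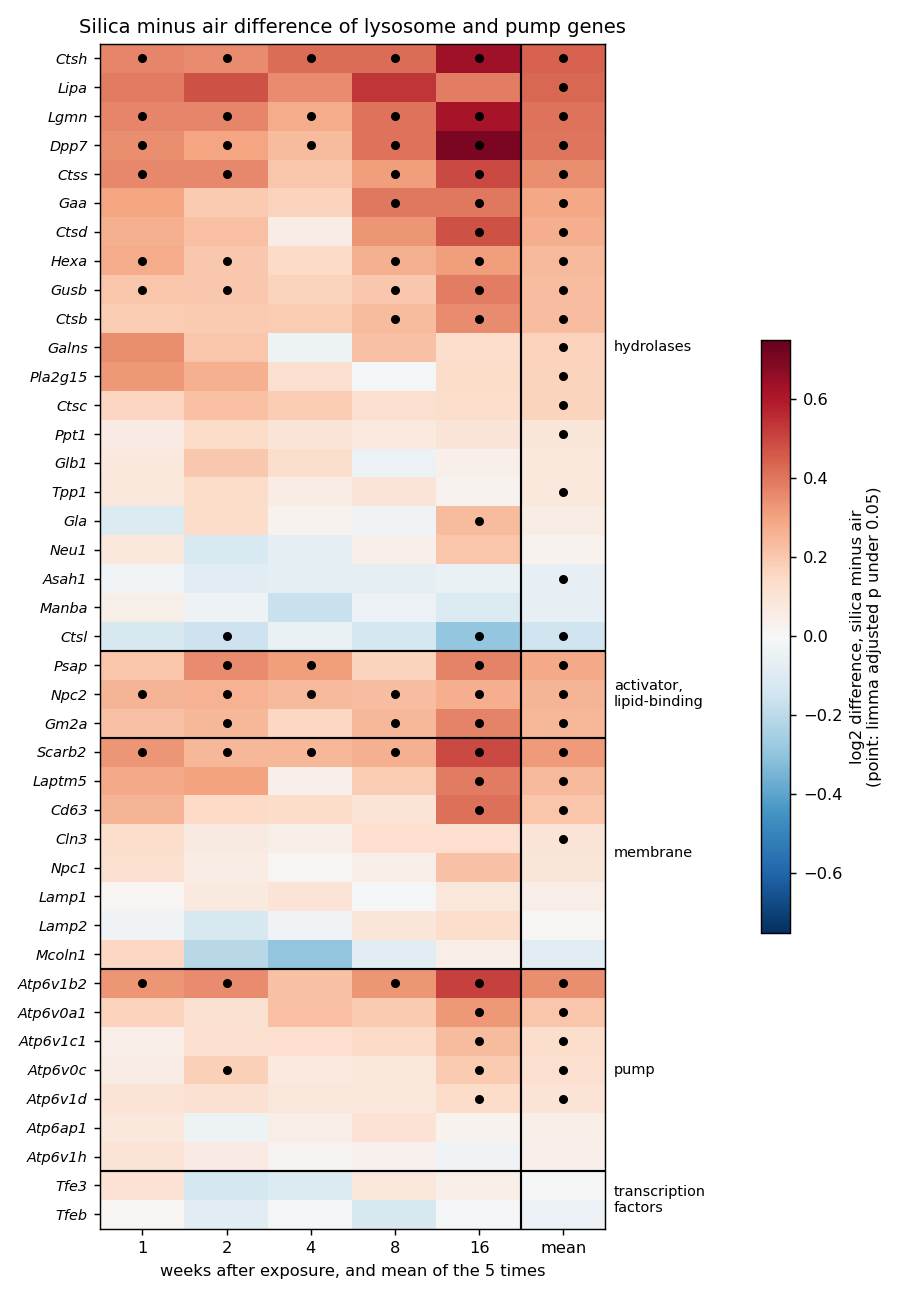
Colour gives the log2 difference, silica minus air, of each of 41 members (rows, by class and then by mean difference) at each of the 5 times and for the mean of the 5 times (columns). A point marks a limma adjusted p under 0.05. Ctsh, Psap, Scarb2 and Atp6v1b2 are positive at every time, Ctsl is negative at every time, and both transcription factors carry no point.

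**Figure D2:**
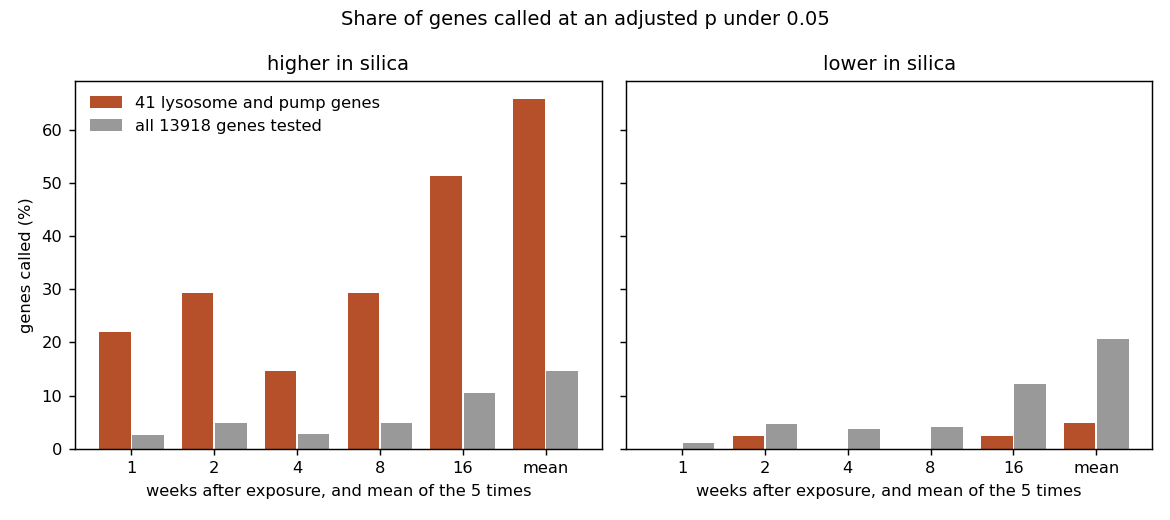
Bars give the percentage of the 41 members (left bar) and of all 13918 genes tested (right bar) called higher (left panel) or lower (right panel) in silica lungs, by weeks and for the mean of the 5 times. The members' bars for higher genes stand above those of all genes at every time, and for lower genes they stand below them.

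The counts at single times changed with single rats and with the scaling of the arrays. With arrays scaled by their medians in place of quantile normalisation no member was called by limma at 1, 2, 4 or 8 weeks, where 35, 23, 19 and 32 of 41 differences were positive, while 8 were higher and 1 lower at 16 weeks, and 16 were higher and 3 lower for the mean. The median member difference then was 0.13, 0.05, -0.02, 0.12 and 0.17 in order of time, so that at 4 weeks its sign turned. Leaving out air replicate 3 or 4 gave 4 or 5 calls at 1 week, 7 or 8 at 2 weeks and 1 call each at 4 weeks. Without silica replicate 3 or 7 at 4 weeks 3 members were called. Without air replicate 3 or 2 at 8 weeks 4 or 7 were called. With run as a block the calls were 13 at 1 week, 18 at 2, 12 at 4, 16 at 8 and 25 at 16 weeks, and 28 for the mean, of which 26 were also called without the block. The shares of all genes called under these settings are not given here. Whether the counts of members changed more than those of other genes is therefore not shown.

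Of the 21 hydrolases tested, 10 were higher and 1 lower at 16 weeks, where 10.5% of all genes were higher and 12.2% lower. For the mean of the 5 times 15 were higher and 2 lower, where 14.6% of all genes were higher and 20.6% lower. Ctsh, a cysteine protease that in type II cells takes part in the maturation of surfactant proteins B and C, showed the smallest p of all members for the mean. Its level was 12.02 to 12.18 (median 12.08) in silica rats at 1 week, against 11.61, 11.67, 11.67 and 11.93 in air rats. At 2 weeks it was 11.99 to 12.16 (median 12.07) in silica rats, against 11.54, 11.67, 11.77 and 11.87 in air rats. At 4 weeks it was 11.99 to 12.27 (median 12.10) in silica rats, against 11.53, 11.61, 11.74 and 11.95 in air rats. Every silica rat stood above every air rat of its time at these 3 times, and the same held later. At 8 weeks Ctsh was 12.11 to 12.57 (median 12.22) in silica rats, against 11.69, 11.72, 11.90 and 12.09 in air rats. At 16 weeks it was 12.30 to 12.67 (median 12.39) in silica rats, against 11.70, 11.75, 11.89 and 11.91 in air rats. The difference was 0.37 ± 0.077 at 1 week (adjusted p = 0.00154) and 0.63 ± 0.077 at 16 weeks, which is 1.55-fold (adjusted p = 5.56e-09). Its mean difference of 0.44 ± 0.035 (1.36-fold, adjusted p = 9.12e-16) lay between 0.38 and 0.58 within the 4 runs.

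Dpp7, a serine peptidase that removes dipeptides from protein ends, showed the largest difference of any member at any time. Its level was 10.37 to 10.62 (median 10.50) in silica rats at 1 week, against 10.06, 10.09, 10.21 and 10.27 in air rats. At 2 weeks it was 10.28 to 10.47 (median 10.36) in silica rats, against 9.94, 10.00, 10.12 and 10.17 in air rats. At 4 weeks the difference was smallest, with 10.30 to 10.64 (median 10.43) in silica rats, against 10.11, 10.13, 10.27 and 10.29 in air rats. At 8 weeks Dpp7 was 10.34 to 10.78 (median 10.49) in silica rats, against 9.83, 10.09, 10.20 and 10.30 in air rats. At 16 weeks it was 10.65 to 10.90 (median 10.73) in silica rats, against 9.76, 10.02, 10.04 and 10.33 in air rats. The groups did not overlap at any of the 5 times. The difference was 0.24 ± 0.073 at 4 weeks (adjusted p = 0.0369), a call that ended without silica replicate 2, 3 or 7 or air replicate 2, 3 or 4 of that time. At 16 weeks it was 0.71 ± 0.073, or 1.63-fold (adjusted p = 6e-11).

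Legumain, encoded by Lgmn, cuts proteins after asparagine and activates several cathepsins. At 16 weeks its level was 10.85 to 11.20 (median 11.07) in silica rats, against 10.08, 10.40, 10.50 and 10.66 in air rats, with no overlap. At 4 weeks the groups did overlap, with 10.65 to 10.94 (median 10.80) in silica rats, against 10.27, 10.51, 10.56 and 10.72 in air rats. The difference was 0.28 ± 0.089 at 4 weeks (adjusted p = 0.0455) and 0.62 ± 0.089 at 16 weeks (adjusted p = 3.26e-07). The 4 week call ended when any of 6 rats was left out, and the 1 week call without air replicate 3. Ctss, the cathepsin that trims the invariant chain of MHC class II molecules in antigen-presenting cells, had a level of 11.78 to 12.15 (median 11.99) in silica rats at 16 weeks, against 11.33, 11.39, 11.56 and 11.60 in air rats. Its differences were 0.36 at 1 week, 0.36 at 2, 0.32 at 8 and 0.50 at 16 weeks, all called, though at 8 weeks not without air replicate 3. At 4 weeks the difference of 0.21 ± 0.078 missed the threshold (adjusted p = 0.0993).

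Ctsb, a cysteine protease of broad specificity, was called at 8 and 16 weeks and for the mean. At 16 weeks its level was 13.45 to 13.78 (median 13.69) in silica rats, against 13.22, 13.26, 13.34 and 13.38 in air rats, without overlap. At 8 weeks the groups overlapped, with 13.44 to 13.69 (median 13.52) in silica rats, against 13.08, 13.18, 13.43 and 13.55 in air rats. The difference was 0.23 ± 0.067 at 8 weeks (adjusted p = 0.0166; lost without air replicate 2 or 3) and 0.35 ± 0.067 at 16 weeks (adjusted p = 5.29e-05). Ctsb was also called at 2 and 4 weeks with run as a block. Gusb, the beta-glucuronidase of glycosaminoglycan breakdown, had 10.16 to 10.46 (median 10.24) in silica rats at 16 weeks, against 9.83, 9.86, 9.89 and 9.98 in air rats. That difference was 0.39 ± 0.058 (1.31-fold, adjusted p = 6.4e-07). Hexa, a subunit of the hexosaminidase that degrades ganglioside GM2, had 10.38 to 10.69 (median 10.48) in silica rats at 16 weeks, against 10.03, 10.17, 10.25 and 10.32 in air rats. Its difference was 0.31 ± 0.063 (adjusted p = 0.000114), and for both genes all silica rats stood above all air rats. Earlier calls were less firm. Those of Gusb at 1, 2 and 8 weeks ended without air replicate 3 of that time, that of Hexa at 1 week without air replicate 4 and that of Hexa at 2 weeks without any of 4 rats.

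The other hydrolases called higher for the mean covered proteins, glycogen and lipids. Lipa, the acid lipase that frees cholesterol and fatty acids, had a mean difference of 0.43 ± 0.10 (adjusted p = 0.000438) but was called at no single time, except at 8 weeks with run as a block (adjusted p = 0.0281). At 16 weeks its levels were 6.32 to 7.19 (median 6.80) in silica rats, against 6.07, 6.10, 6.74 and 6.77 in air rats, a wide and overlapping spread. Gaa, which degrades glycogen, had a mean difference of 0.29 ± 0.051 and was called at 8 and 16 weeks, each call ending without either of 2 air rats. Ctsd, the aspartic protease, had a mean difference of 0.27 ± 0.063 and was called at 16 weeks (0.48 ± 0.14, adjusted p = 0.00873), not so without air replicate 4. Galns, a sulfatase of keratan sulfate (0.17 ± 0.058), Pla2g15, a phospholipase A2 of alveolar macrophages (0.17 ± 0.062), and Ctsc, which activates serine proteases of neutrophil granules (0.17 ± 0.038), were called for the mean alone. The same held for Ppt1, which removes palmitate from proteins (0.09 ± 0.030), and Tpp1, a tripeptidyl peptidase (0.08 ± 0.022). With run as a block Galns was also called at 1 week (adjusted p = 0.00932) and Ctsc at 2 (adjusted p = 0.0054) and 4 weeks (adjusted p = 0.0218). The Galns row was dim, with a median signal of 93.5, within the range of the array medians. Its call for the mean ended without the arrays of run 1 or of run 3. Ppt1 and Pla2g15 were not called with run as a block, Pla2g15 not without any of 6 rats, and Tpp1 came to -0.01 with median scaling. Gla, which removes alpha-galactose from glycolipids, was called at 16 weeks alone (0.24 ± 0.083, adjusted p = 0.0314), a call lost without any of 4 rats.

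Ctsl, a cysteine protease related to Ctsb and Ctss, was lower in silica lungs. At 16 weeks its level was 12.37 to 12.60 (median 12.44) in silica rats, against 12.67, 12.73, 12.77 and 12.83 in air rats, and all 8 silica rats stood below all 4 air rats. At 2 weeks it was 12.65 to 12.83 (median 12.69) in silica rats, against 12.76, 12.86, 12.88 and 12.94 in air rats, with 7 of 8 silica rats below the lowest air rat. The difference was -0.29 ± 0.050 at 16 weeks (adjusted p = 9.59e-06) and -0.15 ± 0.022 for the mean (adjusted p = 1.87e-07). The 2 week call (-0.16 ± 0.050, adjusted p = 0.0363) ended when any of 7 rats was left out, and the value stayed between -0.19 and -0.13. Ctsl was also called lower at 8 weeks with run as a block. It was lower in silica in all 4 runs, with differences of -0.21 to -0.09.

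Asah1, the acid ceramidase, was the other member called lower, for the mean alone, at -0.06 ± 0.023 (adjusted p = 0.0395). At 16 weeks it was 12.03 to 12.28 (median 12.17) in silica rats, against 12.10, 12.21, 12.26 and 12.31 in air rats, and the groups overlapped. At 1 week it was 12.19 to 12.37 (median 12.25) in silica rats, against 12.19, 12.24, 12.31 and 12.42 in air rats. The call ended without any of 12 rats, with cyclic loess, with array weights and with run as a block. Glb1, the beta-galactosidase, Manba, the beta-mannosidase, and Neu1, a sialidase, passed no comparison. Their differences at single times ran between -0.04 and 0.20 for Glb1, between -0.17 and 0.04 for Manba and between -0.11 and 0.21 for Neu1. With run as a block Manba was called lower at 4 weeks and for the mean, Glb1 higher at 2 weeks and Neu1 higher at 16 weeks.

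**Figure D3:**
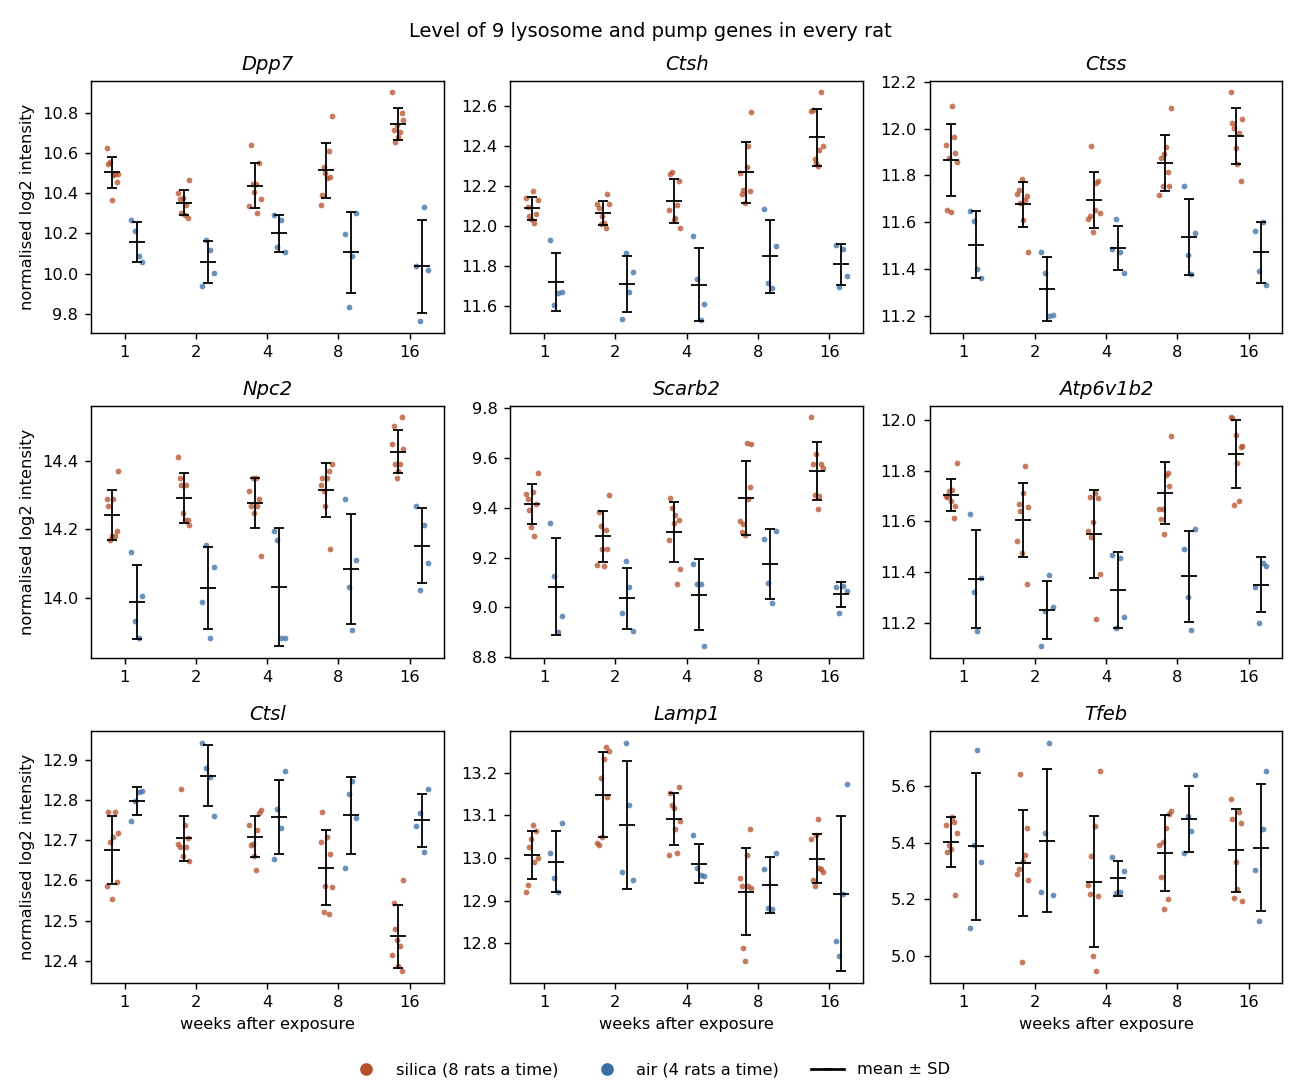
Points give the normalised log2 intensity of 9 members in each rat, by weeks after exposure, with silica rats left of air rats and bars for mean ± SD of 8 silica or 4 air rats. Dpp7 and Ctsh separate the groups at every time, Ctsl is lower in all silica rats at 16 weeks, and the groups of Lamp1 and Tfeb overlap at each time.

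All 3 activator and lipid-binding proteins were called higher at 2 and 16 weeks and for the mean. Of all genes 4.77%, 10.5% and 14.6% were higher in these comparisons. Npc2, the soluble protein that hands cholesterol to the membrane transporter Npc1, was called at every time. Its level at 16 weeks was 14.35 to 14.53 (median 14.41) in silica rats, against 14.02, 14.10, 14.21 and 14.27 in air rats, without overlap. At 1 week it was 14.17 to 14.37 (median 14.23) in silica rats, against 13.88, 13.93, 14.01 and 14.13 in air rats, again without overlap. Its difference was 0.25 ± 0.061 at 1 week (adjusted p = 0.00683) and 0.26, 0.24 and 0.23 at 2, 4 and 8 weeks. At 16 weeks it was 0.27 ± 0.061 (adjusted p = 0.000471). The calls at 1, 2 and 8 weeks ended without air replicate 3 of that time, and the call at 4 weeks without air replicate 3 or 4.

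Psap, the precursor of the saposins that present sphingolipids to their hydrolases, was 10.20 to 10.63 (median 10.44) in silica rats at 2 weeks, against 9.90, 9.96, 10.12 and 10.31 in air rats. At 16 weeks it was 10.29 to 10.47 (median 10.36) in silica rats, against 9.84, 9.97, 10.03 and 10.18 in air rats, and only then did the groups not overlap. Its differences were 0.36 ± 0.089 at 2 weeks (adjusted p = 0.00641), 0.32 ± 0.089 at 4 weeks (adjusted p = 0.0214) and 0.37 ± 0.089 at 16 weeks (adjusted p = 0.0013). Without air replicate 4 Psap was not called at 2 or 4 weeks, and without air replicate 3 not at 4 weeks. Gm2a, the activator that works with Hexa on ganglioside GM2, was 9.52 to 9.84 (median 9.66) in silica rats at 16 weeks, against 8.99, 9.39, 9.41 and 9.47 in air rats. That was its largest difference (0.37 ± 0.080, adjusted p = 0.000306). At 4 weeks, its smallest, Gm2a was 9.37 to 9.70 (median 9.52) in silica rats, against 9.23, 9.37, 9.38 and 9.53 in air rats (0.15 ± 0.080, adjusted p = 0.269). Its calls at 2 and 8 weeks each ended without any of several single rats, 8 at 2 weeks and 5 at 8 weeks.

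Of the 8 membrane proteins, Scarb2, Cd63 and Laptm5 were higher at 16 weeks, and Cln3 joined them for the mean. Of all genes 10.5% were higher at 16 weeks and 14.6% for the mean. Scarb2, the receptor that carries glucocerebrosidase to lysosomes, had 9.39 to 9.76 (median 9.57) in silica rats at 16 weeks, against 8.98, 9.06, 9.08 and 9.08 in air rats, without overlap. At 1 week it had 9.29 to 9.54 (median 9.43) in silica rats, against 8.90, 8.97, 9.13 and 9.34 in air rats, where 6 of 8 silica rats stood above the highest air rat. The difference was 0.33 ± 0.076 at 1 week (adjusted p = 0.00437), 0.25 at 2, 0.25 at 4, 0.27 at 8 and 0.50 ± 0.076 at 16 weeks (adjusted p = 9.95e-07). Calls before 16 weeks each ended without at least 1 air rat of that time, replicate 3 among them every time. Cd63, a tetraspanin of late endosomes, had 10.69 to 10.90 (median 10.82) in silica rats at 16 weeks, against 10.29, 10.40, 10.41 and 10.55 in air rats. Its difference of 0.41 ± 0.081 was called there (adjusted p = 8.52e-05). At 1 week Cd63 was called with run as a block (adjusted p = 0.0315), with cyclic loess, with array weights and in the authors' values. Laptm5, a lysosomal protein of blood-derived cells, was called at 16 weeks at 0.39 ± 0.11 (adjusted p = 0.00764), not so without air replicate 2, and with run as a block also at 1 and 2 weeks. Cln3, whose loss causes a juvenile neuronal ceroid lipofuscinosis in people, had a mean difference of 0.10 ± 0.024 (adjusted p = 0.000677), and with run as a block was also called at 1, 8 and 16 weeks.

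The membrane glycoproteins Lamp1 and Lamp2, the channel Mcoln1 and, by its brighter row, Npc1 passed no comparison. Lamp1 had 12.93 to 13.09 (median 12.98) in silica rats at 16 weeks, against 12.77, 12.81, 12.92 and 13.17 in air rats. Its mean difference of 0.05 ± 0.026 missed the threshold (adjusted p = 0.122). Lamp2, which also takes part in autophagy, had 11.65 to 11.88 (median 11.83) in silica rats at 16 weeks, against 11.57, 11.69, 11.71 and 11.72 in air rats. Its differences ran from -0.12 to 0.13 over the 5 times and none was called. Mcoln1, a cation channel that releases lysosomal calcium, had 6.39 to 6.70 (median 6.56) in silica rats at 4 weeks, against 6.44, 6.53, 7.16 and 7.25 in air rats. Its difference there was the lowest of the class (-0.30 ± 0.11, adjusted p = 0.0991). With run as a block Mcoln1 was called lower at 4 weeks, and its differences ran from -0.30 to 0.16. Npc1, the sterol transporter of the membrane, had 2 rows. The brighter one, called Cdig2 in the table and assigned by its gene identifier, gave 0.09 ± 0.040 for the mean (adjusted p = 0.0728). The mean of both rows gave 0.16 (adjusted p = 0.000505), with a call at 16 weeks (0.32, adjusted p = 0.00297). With run as a block the brighter row was called higher at 16 weeks and for the mean.

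At 16 weeks 5 of 7 pump subunits were called higher, against 10.5% of all genes. For the mean of the 5 times 5 were higher too, against 14.6% of all genes. The counts were 1, 2, 0 and 1 at 1, 2, 4 and 8 weeks, where 2.68%, 4.77%, 2.86% and 4.76% of all genes were higher. The slope of the difference was called for no pump subunit. The pump has a V1 part in the cytosol that splits ATP and a V0 part in the membrane through which protons pass. Atp6v1b2, a subunit of V1 that binds nucleotide, had 11.66 to 12.01 (median 11.89) in silica rats at 16 weeks, against 11.20, 11.34, 11.42 and 11.44 in air rats, without overlap. At 1 week it had 11.61 to 11.83 (median 11.70) in silica rats, against 11.17, 11.32, 11.38 and 11.63 in air rats. Its difference was 0.33 ± 0.085 at 1 week (adjusted p = 0.0133; lost without air replicate 2, 3 or 4) and 0.52 ± 0.085 at 16 weeks, or 1.43-fold (adjusted p = 4.51e-06). Its call at 8 weeks ended without air replicate 3, and with run as a block it was called at all 5 times. Atp6v0a1, the large membrane subunit, differed by 0.32 ± 0.073 at 16 weeks (adjusted p = 0.000612), and with run as a block was also called at 4 and 8 weeks. Atp6v1c1, a stalk subunit of V1, differed by 0.23 ± 0.057 (adjusted p = 0.00138), with 10.40 to 10.62 (median 10.53) in silica rats and 10.16, 10.26, 10.32 and 10.39 in air rats. The mean of its 2 rows gave 0.37 at 16 weeks (adjusted p = 1.23e-05), over 1.5 times that value. By that mean Atp6v1c1 was also called at 2 (0.23, adjusted p = 0.0155) and 4 weeks (0.22, adjusted p = 0.0297), and for 16 against 1 week. Atp6v0c, the proteolipid of the proton-carrying ring, differed by 0.19 ± 0.051 at 16 weeks, and its call at 2 weeks ended without air replicate 3 or 4. Atp6v1d, of the rotor shaft, differed by 0.14 ± 0.043, a call lost without air replicate 4, while with run as a block it was also called at 2 weeks. Atp6v1h and the accessory protein Atp6ap1 passed no comparison, with differences from -0.03 to 0.10 for Atp6v1h and from -0.04 to 0.11 for Atp6ap1. The lowest of the class was Atp6ap1 at 2 weeks, with 10.09 to 10.57 (median 10.37) in silica rats, against 10.33, 10.36, 10.43 and 10.45 in air rats.

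Tfeb and Tfe3 are transcription factors that switch on lysosomal genes through a short palindrome known as the CLEAR element. Neither was called at any time by limma, while at an unadjusted p under 0.05 Tfe3 was higher at 1 week and lower at 2 weeks. Tfeb was 5.20 to 5.56 (median 5.40) in silica rats at 16 weeks, against 5.12, 5.30, 5.45 and 5.66 in air rats, with a mean difference of -0.04 ± 0.047. The Tfeb row was dim, with a median signal of 81.2, within the range of the array medians. Its missing call is therefore of little weight. Tfe3 was 10.32 to 10.47 (median 10.37) in silica rats at 1 week, against 10.16, 10.29, 10.32 and 10.33 in air rats (0.11 ± 0.052, adjusted p = 0.314). At 2 weeks Tfe3 was 9.95 to 10.13 (median 10.07) in silica rats, against 10.06, 10.09, 10.29 and 10.33 in air rats (-0.13 ± 0.052, adjusted p = 0.11). Without the arrays of run 5 Tfe3 was called lower at 2 weeks. The groups overlapped at each of these times, and the mRNA level says nothing of where the factors are in the cell.

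Promoters of 33 of the 41 members, from 250 bases before to 50 after the gene start, were in the RefSeq table of build GRCr8. The palindrome TCACGTGA stood in 4 of them (12.1%), against 260 of 33469 promoters in the table (0.777%). Its core CACGTG, which lies within it, stood in 7 (21.2%), against 2148 of 33469 (6.42%), with Cd63, Glb1 and Gaa added. The promoters in the table were not limited to the 13918 genes tested, so members were set against an unlike set. Both motifs read the same on either strand. Of 21 promoters of members called higher for the mean, 2 held TCACGTGA and 4 held CACGTG, and of the 12 other promoters 2 held TCACGTGA and 3 held CACGTG. The 4 promoters with TCACGTGA are shown because they belong to 2 members called higher and 2 members that passed no comparison. Each runs for 150 bases, from 120 bases before the start to 30 after it, with TCACGTGA in capitals. On GRCr8 they are chr1:206968792-206968941, minus strand, for Ctsd and chr1:190597900-190598049, minus strand, for Cln3. Those of the other two are chr16:83075034-83075183, minus strand, for Lamp1 and chr12:6358138-6358287, plus strand, for Mcoln1.
Ctsd: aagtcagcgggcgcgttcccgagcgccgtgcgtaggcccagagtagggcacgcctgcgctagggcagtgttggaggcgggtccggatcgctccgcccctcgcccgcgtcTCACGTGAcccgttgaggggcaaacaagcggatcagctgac
Cln3: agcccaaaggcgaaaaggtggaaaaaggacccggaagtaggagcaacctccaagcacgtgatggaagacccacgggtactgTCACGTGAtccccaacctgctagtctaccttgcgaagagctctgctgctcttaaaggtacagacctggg
Lamp1: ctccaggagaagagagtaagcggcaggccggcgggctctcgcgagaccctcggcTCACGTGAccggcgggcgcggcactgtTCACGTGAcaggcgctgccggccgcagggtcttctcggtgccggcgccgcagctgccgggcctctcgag
Mcoln1: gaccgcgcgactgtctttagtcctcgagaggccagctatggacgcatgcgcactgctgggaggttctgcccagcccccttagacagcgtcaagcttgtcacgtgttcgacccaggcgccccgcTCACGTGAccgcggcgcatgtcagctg

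In these windows Lamp1 held the palindrome at 2 places, and the others at 1. The mean differences beside them were 0.27 for Ctsd, 0.10 for Cln3, 0.05 for Lamp1 and -0.08 for Mcoln1. A match is a description of the letters and no evidence of binding.

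Whether the silica difference changed between 1 and 16 weeks was asked of every member. Only Dpp7 passed, with a slope of 0.08 ± 0.023 per doubling of weeks (adjusted p = 0.0442), against 0.992% of all genes with a positive slope called. That call ended without any of 23 of the 60 rats in turn, the slope staying between 0.065 and 0.103. It also ended with array weights, with median scaling and with no detection filter. Dpp7 was also the 1 member whose 5 differences were unequal by the F-test (adjusted p = 0.0246), against 2.09% of all genes. The next slopes by p were 0.05 ± 0.020 for Lamp2 (adjusted p = 0.189), 0.06 ± 0.024 for Ctsh (adjusted p = 0.231), 0.04 ± 0.018 for Atp6v1c1 (adjusted p = 0.303) and -0.03 ± 0.016 for Ctsl (adjusted p = 0.374). Between 16 and 1 week no member's difference had changed by limma, against 0.769% of all genes called upward. At an unadjusted p under 0.05 there were 6 upward and 1 downward, and the lowest adjusted p was 0.0586 for Dpp7, which was called with run as a block. So the larger count of calls at 16 weeks does not by itself show larger differences there. In air lungs no member changed with time by limma, against 1.96% of all genes in either direction, with 3 at an unadjusted p under 0.05 and Cln3 called with run as a block.

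Within the 4 runs that held both groups, each silica array was set against the air array of the same run and time, 20 pairs in all. Of the 41 members 26 were higher in silica in every run, against 15.9% of all genes tested, among them 25 of the 27 called higher for the mean. Ctsd (-0.02 in run 6) and Ppt1 (-0.04 in run 3) were the others. Ctsh, Lgmn, Dpp7, Npc2, Scarb2, Atp6v0a1 and Atp6v1b2 were higher in silica in 20 of 20 pairs, against 1.82% of all genes. Ctsl and Manba were lower in silica in every run, against 23.2% of all genes. The median difference over the members was 0.23 in run 1, 0.12 in run 3, 0.21 in run 5 and 0.08 in run 6. Lipa ranged most, from 0.05 in run 6 to 0.70 in run 1.

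**Figure D4:**
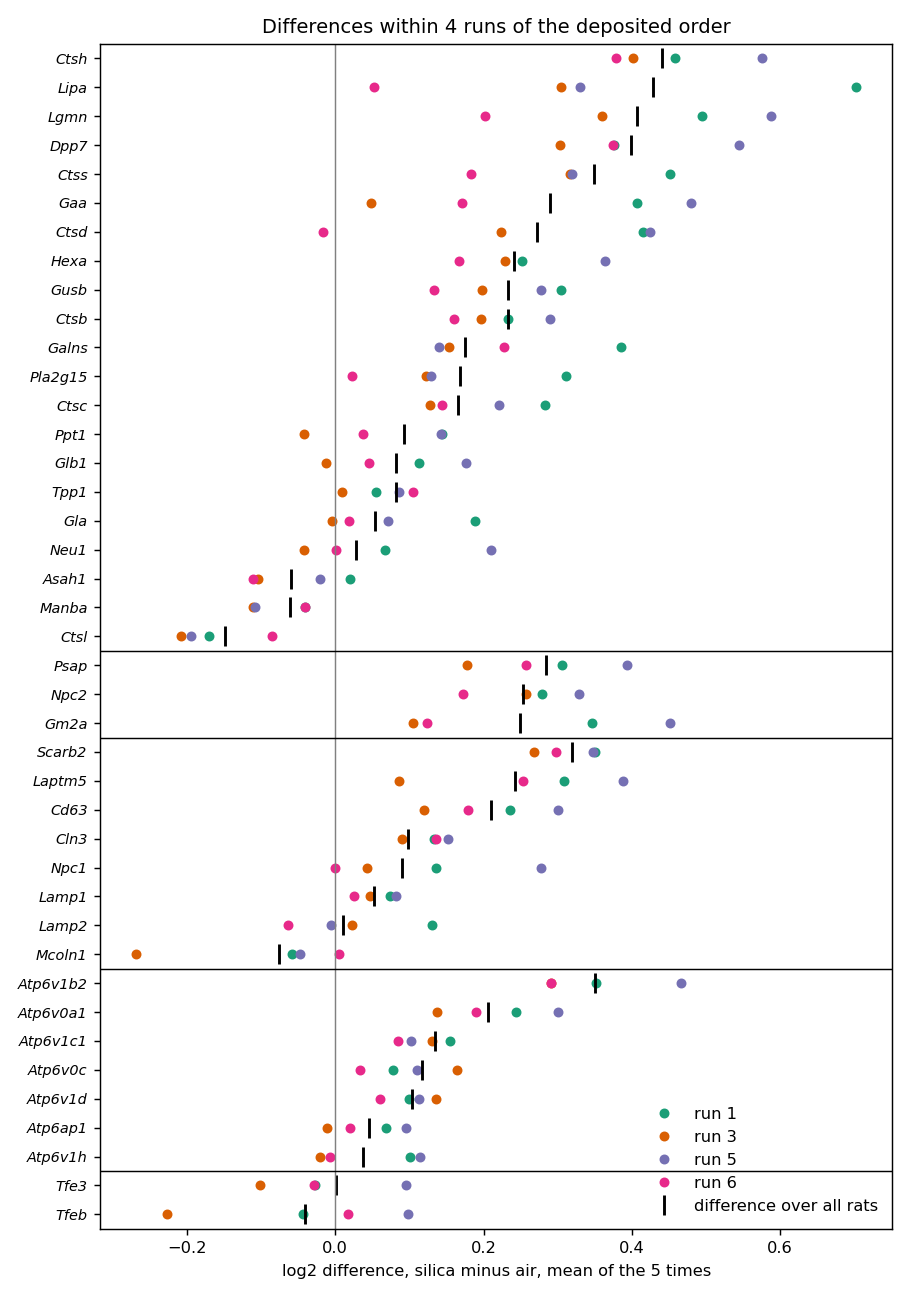
Coloured points give each member's log2 difference, silica minus air, averaged over the 5 times within run 1, 3, 5 or 6, and the black tick gives the difference over all 40 silica and 20 air rats. Points of Ctsh, Dpp7 and Scarb2 lie right of 0 in all runs, points of Ctsl lie left of it, and those of Tfeb and Lamp2 lie on both sides.

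Lysosomal genes outside the 41 members were also called, and their counts at 16 weeks stand against 10.5% of all genes higher and 12.2% lower. At 16 weeks the median difference was 0.11 over the other hydrolases, 0.14 over the other membrane proteins, 0.10 over the other pump subunits and 0.02 over sorting and regulator genes. Of 29 other hydrolases tested 11 were higher at 16 weeks. For the mean 15 were higher and 3 lower, against 14.6% and 20.6% of all genes. Rnaset2, an RNase, differed by 0.59 ± 0.065 at 16 weeks (adjusted p = 3.16e-10). Galc, which degrades galactosylceramide, differed by 0.55 ± 0.11, Plbd1 by 0.51 ± 0.073 and Pcyox1, which breaks down prenylcysteines, by 0.41 ± 0.066. Of 30 other membrane proteins 11 were higher and 3 lower at 16 weeks. They included Cd68, also in the macrophage marker list (0.88 ± 0.12), Lamp3, a protein of lamellar bodies (0.45 ± 0.088), and Litaf (0.43 ± 0.064). The two-pore channel Tpcn1 was lower at 16 weeks, with a difference of -0.48 ± 0.070 (adjusted p = 4.02e-07).

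Of 13 other pump subunits 4 were higher at 16 weeks, namely Tcirg1, Atp6v0d2, Atp6v1c2 and Atp6v1g1. For the mean of the 5 times 6 were higher and 1, Atp6v0e2, was lower, against 14.6% and 20.6% of all genes. Atp6v0d2, an isoform of osteoclasts and macrophages, differed by 1.28 ± 0.085 for the mean of the 5 times (adjusted p = 1.17e-18), more than any of the 41 members. For the same mean the widely expressed isoform Atp6v0d1 differed by 0.11 ± 0.029, Atp6ap2 by 0.14 ± 0.024 and Atp6v1g1 by 0.09 ± 0.021. Of 28 sorting and regulator genes 7 were higher and 4 lower at 16 weeks, again against 10.5% and 12.2% of all genes. The 4 lower ones were Sort1, a sorting receptor (-0.19 ± 0.072), Cln6 (-0.38 ± 0.13), the GTPase Rraga (-0.19 ± 0.057) and the kinase Mtor (-0.16 ± 0.052). Gpnmb, a glycoprotein of lipid-laden macrophages (0.92 ± 0.14), Grn, the precursor of the granulins (0.57 ± 0.11), Rragc, a GTPase of nutrient sensing at the lysosome (0.27 ± 0.049), and Tfec, a relative of Tfeb (0.56 ± 0.12, adjusted p = 0.000363), were higher. Of 4 inhibitors of cysteine proteases Cstb (0.44 ± 0.066) and Cst7 (0.35 ± 0.12) were higher at 16 weeks, while Cst3 (-0.08 ± 0.041) and Cst6 (-0.34 ± 0.16) were not called.

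Markers of several cell types also differed between silica and air lungs, in both directions. Their counts at 16 weeks stand against 10.5% of all genes higher and 12.2% lower. Macrophage markers, 14 tested of 18 listed, were higher in 9 cases at 1 week, against 2.68% of all genes, and 12 at 16 weeks. For the mean of the 5 times 11 were higher and 1, Cd163, was lower, against 14.6% and 20.6% of all genes. The mean level of the macrophage markers was 9.26 to 9.65 (median 9.44) in silica rats at 16 weeks, against 8.49 to 8.86 (median 8.67) in air rats. At 1 week it was 9.11 to 9.32 (median 9.14) in silica rats, against 8.55 to 8.93 (median 8.74) in air rats, and at neither time did the groups overlap. Type II cell markers, 9 tested of 10, were higher in 5 cases at 16 weeks. Their mean level was 12.83 to 12.94 (median 12.88) in silica rats, against 12.50 to 12.77 (median 12.63) in air rats. Neutrophil markers were higher in 7 of 10 cases at 16 weeks, with a mean level of 7.70 to 8.25 (median 7.93) in silica rats, against 7.05 to 7.25 (median 7.14) in air rats. Endothelial markers were lower in 6 of 6 cases tested, with 10.31 to 10.51 (median 10.44) in silica rats, against 10.73 to 10.88 (median 10.82) in air rats, and type I cell markers in 4 of 6. T and B cell markers were higher in 1 case and lower in 4 of 10, and club and ciliated cell markers were lower in 1 of 5.

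The mean over the 41 members was 10.12 to 10.31 (median 10.19) in silica rats at 16 weeks, against 9.88 to 10.02 (median 9.97) in air rats. The difference of means was 0.17, 0.14, 0.10, 0.15 and 0.24 in order of time for the members. For the macrophage markers it was 0.43, 0.43, 0.39, 0.59 and 0.78 at the same times. The part of these cell types in the members' differences was not tested. Heart muscle markers, 4 tested of 7, also stood apart, with 5.40 to 9.51 (median 5.55) in silica rats at 16 weeks, against 9.78 to 10.73 (median 10.27) in air rats. Their difference of means was -1.53 at 1 week, 1.10 at 2, 2.45 at 4, -1.51 at 8 and -4.08 at 16 weeks. Their part in the members' differences was not tested.

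**Figure D5:**
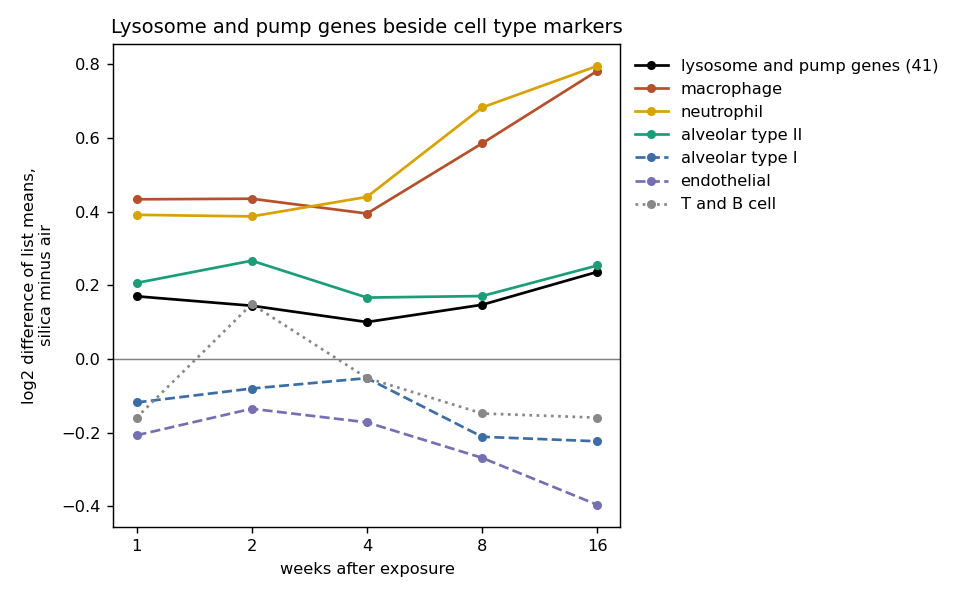
Lines give the difference of list means, silica minus air (log2), of the 41 members and of markers of 6 cell types by weeks after exposure. Macrophage and neutrophil markers lie highest and reach 0.78 and 0.80 at 16 weeks, the members lie near the type II cell markers, and type I and endothelial cell markers lie below 0.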

How the data were processed

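Each of the 60 arrays had 4 columns, per the file headers: an average bead intensity per row, a detection p-value, a bead standard error and a number of beads, of which the first 2 were used in the tests. These were deposited without normalisation, judged from differing array medians. A second deposited table, on a log2 scale to judge by its range and with unstated scaling, gave alternative values. BeadStudio, lumi and limma appear in the submitters' processing notes, and their versions are not given in the sources used here.

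Of 21792 gene rows, 16866 were named by gene identifier and 23 by accession through RefSeq's rat gene table of build GRCr8, 4786 kept the symbol of the file and 117 stayed unnamed. Background was corrected by normexp (offset 16), which took its control spots from the detection p-values, followed by quantile normalisation and log2. Kept were genes with a detection p under 0.05 on 4 or more arrays, with the brightest row per gene. This affected 70 symbols and left 13918 genes. One fit with limma 3.58.1 in R 4.3.3 gave each of 10 groups a mean, with 50 residual degrees of freedom. The fit was also run on simulated data with noise independent between arrays. That cannot show how it behaves where arrays of a run correlate. Contrasts were silica minus air at each time, their mean, their slope per doubling of weeks, the 16 against 1 week difference, an F-test among the 5 times and the slope in air rats. Figures were drawn with matplotlib 3.10.9 and tables made with pandas 2.3.3 on python 3.11.15. The number of arrays, 4 in each air group, limits the precision.

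The members and all gene lists were chosen with earlier results of these data known. Values in every rat are given for the 12 members with the smallest p of the mean difference and for the largest rise and fall of each class. The 5 smallest p of the slope, all members called lower, all passing nothing, and up to 4 genes per pathway list are named. Some other members were named after their values were seen. Replicate numbers name different rats. Correlations of deviations between silica and air rats of the same number and time ran from -0.35 to 0.39 and exceeded 0.1 in 5 of 20 pairs, so numbers were not taken as pairs.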

Additional observations from a re-analysis of the deposited data

Results flagged for a closer look

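In 190 groups of 4 or 8 rats, formed by 19 members whose values are given or discussed and 10 groups, 8 rats stood apart from the rest of their group by Dixon's test at the 95% level, which chance does in about 1 of 20 groups. Among silica rats, Npc2 was low in replicate 8 at 4 weeks (14.12, nearest 14.25), Gusb was high in replicate 8 at 8 weeks (10.38, nearest 10.18) and Tfe3 was low in replicate 5 at 2 weeks (9.95, nearest 10.05). Among air rats, Hexa was high in replicate 2 at 2 weeks (10.33, nearest 10.12), Gm2a was low in replicate 2 at 16 weeks (8.99, nearest 9.39) and Lamp2 was high in replicate 1 at 4 weeks (11.72, nearest 11.52). Mcoln1 was low in air replicate 1 at 1 week (6.82, nearest 6.93) and high in air replicate 4 at 16 weeks (7.15, nearest 6.86). The difference between silica and air lungs in Dpp7 was unequal among the 5 times (limma F-test, adjusted p = 0.0246), being lowest at 4 weeks (0.24) and highest at 16 weeks (0.71).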

How the results depend on the processing

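Counts below are members called in either direction, of 41, by limma unless named otherwise. The shares of all genes called under each setting are not given here. Calls numbered 9, 13, 6, 12 and 22 in order of time and 29 for the mean. At an adjusted p under 0.01 with at least 1.2-fold they were 6 at 2 weeks, 1 at 4, 6 at 8 and 10 for the mean, and 0 for the slope and the F-test. With median scaling they were 0 at 1 to 8 weeks, 9 at 16 weeks and 19 for the mean, and 0 for the slope and the F-test. With array weights there were 8 at 2 weeks and 0 for the slope and the F-test, and with no detection filter 0 for the slope. With each time fitted alone, which gives no mean, slope or F-test, there were 6 at 2 weeks, 1 at 4 and 7 at 8. The mean of a gene's rows gave 1 for 16 against 1 week. The replicate block gave 3 at 4 weeks, and its other counts were within 1.5 times; the numbers did not pair the rats. Run as a block, chosen after seeing the data, gave 12 at 4 weeks, 1 for the slope in air lungs, 1 for 16 against 1 week and 2 for the F-test. Leaving out 1 rat or 1 run gave 4 to 13, 7 to 14, 1 to 9, 4 to 14 and 18 to 23 by time, 26 to 30 for the mean, 0 to 1 for the slope and for 16 against 1 week, 0 for the slope in air lungs and 0 to 2 for the F-test. The causes were not tested. Of 285 alternative values of 15 named members' mean differences 268 stayed called and 17 did not, and 0 changed sign. These 15 include the 12 members chosen by the smallest p of that same mean difference, so this stability was partly set by the choice. Other members called for the mean, among them Tpp1, Ppt1 and Pla2g15, were not counted here. Slide or scan as a block was not run, as none was given for the arrays used here.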
